A study of Rattus norvegicus with 7 samples.

Results

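The genes described here are the nuclear receptors of the PPAR family (Pparg, Ppara and Ppard), their RXR partners Rxra and Rxrb, the coactivator Ppargc1a and 4 genes known as targets of PPARG, namely Fabp4, Fabp5, Cd36 and Adipoq. They were taken by symbol: 9 of the 10 were found in the tables, out of 17245 genes measured in both, and Cd36 is not analysed here. They were followed in RNA sequencing libraries of rat meibomian gland, the lipid-secreting gland of the eyelid, in 4 control libraries and 3 libraries made after ultraviolet B light (UVB). All were wild-type female Sprague-Dawley rats aged 3 months; the controls had no treatment, and UVB was given to the shaved upper lid at 300 mJ/cm2 in 5 min per day over 5 days. Whether controls were shaved, how long after the last exposure the glands were taken and whether a library came from 1 animal are not stated, so p-values measure the spread between these libraries. Libraries carry letters that name them only.

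PPARs are receptors for fatty acids and their derivatives. Each binds DNA as a pair with an RXR, at a DR1 element made of a short repeat spaced 1 base apart, and recruits coactivators such as the product of Ppargc1a. PPARG drives differentiation of lipid-storing cells, including the sebaceous and meibomian cell lineages; PPARA is known for fatty acid oxidation, and PPARD is widely expressed and known in keratinocytes. The target genes encode carriers of fatty acids inside the cell (Fabp4 and Fabp5) and a hormone of fat cells (Adipoq).

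The libraries held between 20680237 and 28784941 counts. Levels of different genes are compared as TPM, the authors' length-corrected values, and conditions as CPM, counts scaled to a common library size by TMM, with fold changes from edgeR. In whole tissue, fewer cells of a type and less RNA per cell cannot be told apart. The labelled tissue was checked by 10 meibocyte genes, all of them measured: their summed level was 50701 to 61817 TPM in the controls and 49628 to 57298 TPM after UVB, led by the desaturase gene Scd at 27692 TPM in the controls. Of these 10 genes, 5 lay above a log2 fold change of 0 and 5 below, with a median of 0.03. The 2 called were both lower (20%, where 13.0% of all genes tested were called), Plin2 and the wax ester synthase gene Awat2. Awat2 measured 11610 TPM in the controls and 7380 TPM after UVB with the groups apart (log2 fold change -0.66, SE 0.093, edgeR adjusted p = 0.00453). The largest rise in the list was that of Elovl3, not called and with overlapping groups (0.54, SE 0.15, edgeR adjusted p = 0.0506). Genes of other cell types were present too, with summed levels in the controls of 2502 to 3527 TPM for 8 skeletal muscle genes, 11876 to 14309 TPM for 8 keratinocyte genes, 177 to 499 TPM for 10 macrophage genes and 76.2 to 93.0 TPM for 8 endothelial genes.

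Of the 9 genes, 2 passed the threshold of an adjusted p of 0.05, Fabp5 and Ppard, both higher after UVB. That is 22.2% of the 9, where 13.0% of all 13709 genes tested were called (edgeR quasi-likelihood test, Benjamini-Hochberg adjustment). No gene of the 9 was called lower; 2 that were lower, Adipoq and Ppargc1a, had an unadjusted p under 0.05, as did Pparg, and DESeq2 called Adipoq as well. The median log2 fold change of the 9 was -0.04, and that of all genes tested was -0.01. CPM of the groups did not overlap for 2 of the 9, again Fabp5 and Ppard, where 26.6% of all genes tested had groups apart.

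**Figure D1:**
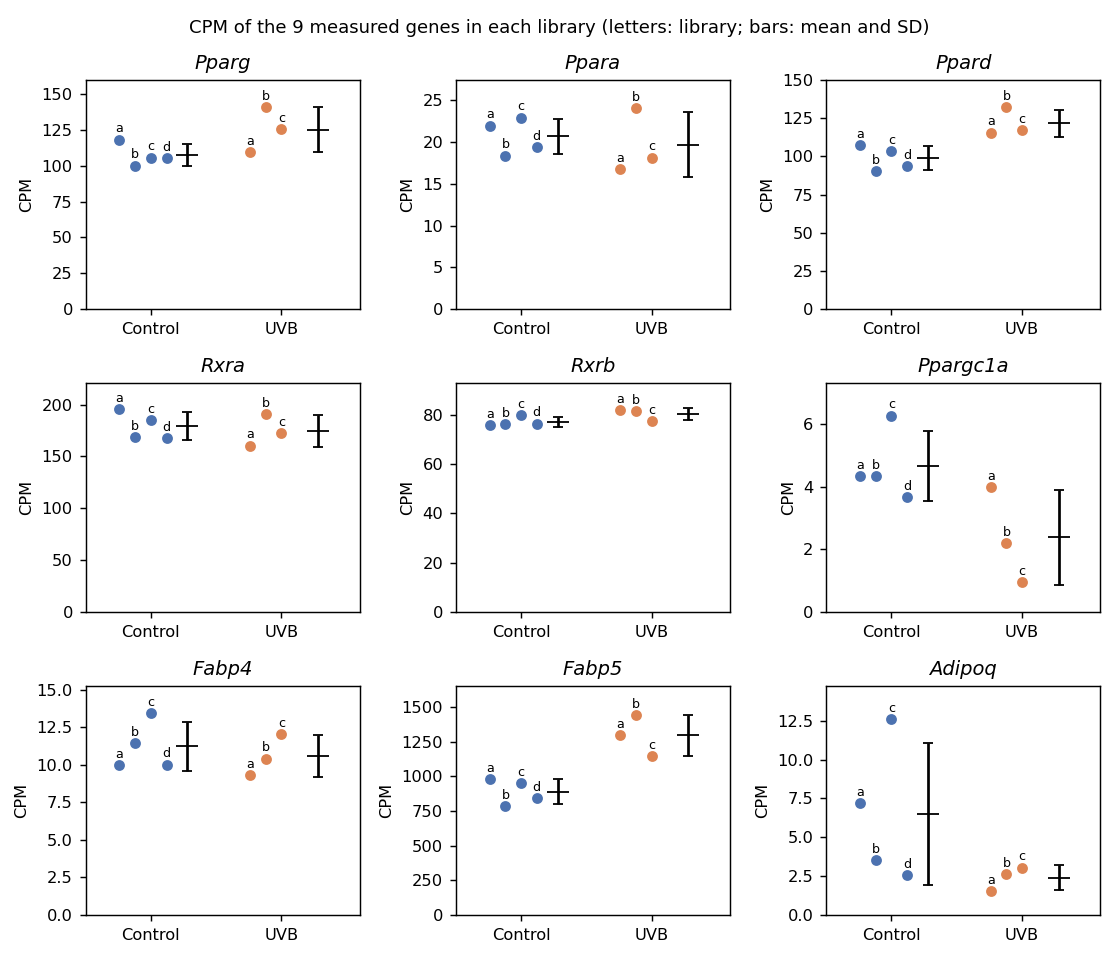
CPM (vertical axes, from 0) of the 9 measured genes in each of 4 control and 3 UVB libraries; letters name libraries, and the bars beside the points give the mean and SD. The UVB libraries lie above every control for Fabp5 and Ppard only, and control c is the highest library for Adipoq and Ppargc1a.

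Among the receptors, Pparg was the most abundant PPAR. It measured 90.8 to 105.1 TPM in the controls and 101.8 to 126.2 TPM after UVB, Ppard measured 45.99 to 53.9 and 59.9 to 66.4 TPM, and Ppara 15.6 to 19.9 and 14.6 to 20.2 TPM. The order Pparg, Ppard, Ppara held in all 7 libraries with no overlap between neighbours. Pparg exceeded Ppard by 1.70 to 2.03 times and Ppara by 4.87 to 7.35 times within a library. Rxra, at 140.6 to 163.0 TPM in the controls and 139.0 to 160.5 TPM after UVB, was above all 3 PPAR genes in every library. Rxrb stood at 15.2 to 17.0 TPM over the 7 libraries, near Ppara, and the third RXR gene, Rxrg, at 1.29 to 3.29 TPM.

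The Rxrb level is uncertain. Its counts were not whole in any library, it overlaps the zinc transporter gene Slc39a7 in the RefSeq gene table of GRCr8, and 1 TPM of it stood for 4.41 to 4.52 times as many counts as 1 TPM of Pparg, against 1.06 to 1.08 times for Rxra. The handling of strand is not stated, so counts of Ppara, which overlaps Cdpf1, and of Ppard, which overlaps an unnamed locus, may hold reads of the overlapping gene.

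**Figure D2:**
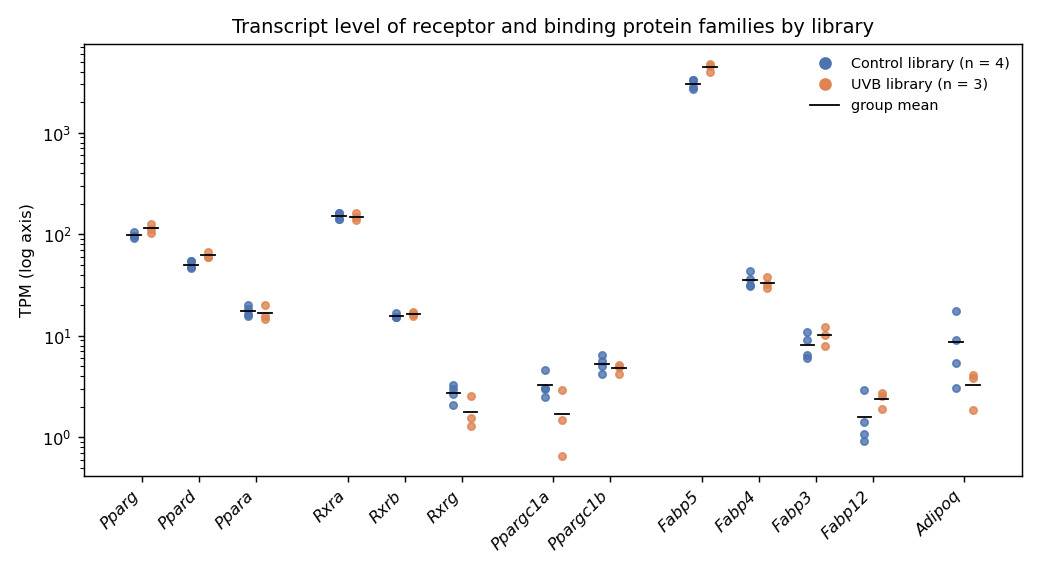
TPM (vertical axis, log scale) of PPAR, RXR, coactivator and fatty acid binding protein genes and Adipoq in 4 control libraries and 3 UVB libraries; black lines are group means. Pparg, Ppard and Ppara keep their order in every library, and Fabp5 stands far above the other fatty acid binding protein genes.

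Pparg is shown first with its DNA, since RefSeq gives it more than 1 start. RefSeq (GRCr8) lists 2 windows of 300 bases for it, from 250 bases before a start to 50 after, both on the plus strand of chromosome 4. Capitals mark the first place with the fewest mismatches to the DR1 letters AGGTCANAGGTCA, searched on both strands.

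Pparg, chr4:150096808-150097107: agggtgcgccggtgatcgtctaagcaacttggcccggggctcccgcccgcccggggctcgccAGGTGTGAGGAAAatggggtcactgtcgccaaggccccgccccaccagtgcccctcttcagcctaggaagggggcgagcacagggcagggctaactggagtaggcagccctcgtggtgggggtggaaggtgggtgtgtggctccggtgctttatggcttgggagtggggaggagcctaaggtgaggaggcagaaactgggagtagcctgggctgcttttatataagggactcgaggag
Pparg, chr4:150154522-150154821: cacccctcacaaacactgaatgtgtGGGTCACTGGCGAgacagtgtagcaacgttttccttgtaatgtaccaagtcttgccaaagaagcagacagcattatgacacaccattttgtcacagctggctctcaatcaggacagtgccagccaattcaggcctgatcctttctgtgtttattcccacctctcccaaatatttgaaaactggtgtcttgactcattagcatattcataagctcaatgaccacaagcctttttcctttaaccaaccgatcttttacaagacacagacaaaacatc

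Each window had 4 mismatches over the 12 fixed letters at best. Windows with at most 4 made up 80.3% of all 33469 in the table, so a match of this kind is common, and no complete AGGTCA was present on either strand of the windows of 7 of the 10 genes that the table holds (8 windows). Rxra had 5 mismatches at best, and Cd36, Ppara, Ppargc1a, Rxrb and Adipoq had 4. Among the genes of the pathway lists below, 88 had a window, with 95 windows in all. A place with at most 2 mismatches was held by 7 of these genes. The share over all windows was 3.77%, counted by window and not by gene, and no test compared them. A near-complete element is shown for comparison from Acadvl, which encodes a mitochondrial fatty acid oxidation enzyme, with 1 mismatch on the minus strand of chromosome 10.

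Acadvl, chr10:55236696-55236736: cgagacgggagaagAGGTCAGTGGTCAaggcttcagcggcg

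Acadvl measured 362.0 CPM in the controls and 353.9 CPM after UVB (log2 fold change -0.03, SE 0.068, edgeR adjusted p = 0.791). The windows describe letters near a start and say nothing of whether a receptor was bound there.

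The CPM of Pparg was 118, 100.1, 106 and 105.6 in controls a to d and 109.6, 141, and 125 in UVB a to c. UVB a lay inside the range of the controls, and UVB b and c lay above it. edgeR gave a log2 fold change of 0.22 with an SE of 0.090 (adjusted p = 0.136), which did not pass. It was 0.13 without UVB b and 0.31 without UVB a (adjusted p = 0.374 and 0.0573), so the size rested on which irradiated library was kept.

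Ppard rose in the irradiated glands. It measured 107, 90.55, 104 and 93.9 CPM in controls a to d and 116, 132 and 117.5 CPM in UVB a to c, so each UVB library was above the highest control. The means were 98.9 ± 7.98 CPM in the controls (SD, n = 4) and 121.7 ± 9.02 CPM after UVB (SD, n = 3), which is a log2 fold change of 0.30 with an SE of 0.079 in edgeR (adjusted p = 0.0355), or 1.23 times. The margin to the threshold was small: without control b, c or d, or without any 1 of the UVB libraries, the adjusted p was between 0.0531 and 0.108 at log2 fold changes of 0.24 to 0.34. It was 0.0595 under log2(TPM + 1) without a filter.

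Ppara was not called. Its values were 22.0, 18.4, 22.9 and 19.4 CPM in controls a to d and 16.8, 24.1 and 18.2 CPM in UVB a to c, and UVB b was the highest library of all while UVB a was the lowest. edgeR gave a log2 fold change of -0.07 with an SE of 0.14 (adjusted p = 0.766). Rxra likewise spread as widely within groups as between them, at 167.3 to 195.6 CPM in the controls and 160.5 to 191.1 CPM after UVB (-0.03, SE 0.081, adjusted p = 0.812). The signs of Ppara and Rxra were not stable, since Ppara was 0.03 without UVB a, and Rxra was 0.01 without control a and 0.02 without UVB a. Rxrb was steady across libraries, from 75.9 to 79.9 CPM in the controls and 77.4 to 81.9 CPM after UVB (0.06, SE 0.055, adjusted p = 0.519).

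Since a ratio of transcripts within a library does not depend on its scaling, 4 such ratios of TPM were compared by exact permutation of the library labels (two-sided, 35 splits) and adjusted over the 4. The ratio of Ppara to Pparg was 0.172 to 0.206 in the controls and 0.137 to 0.161 after UVB. These ranges did not overlap, and the exact p of 0.0286 is the smallest that the splits can give, but the adjusted p was 0.114. The log2 ratio differed by -0.30. Ppard to Pparg was 0.493 to 0.556 in the controls and 0.527 to 0.590 after UVB (difference 0.08 on the log2 scale, exact p = 0.286, adjusted 0.381). Rxra to Rxrb was 9.08 to 10.7 and 8.15 to 9.78 (difference -0.09, exact p = 0.457). None of the 4 passed after adjustment. A single ratio could not pass alone, since the smallest exact p gives 0.114 after adjustment unless other ratios have small p-values as well. The adjusted result therefore does not decide whether the ratio of Ppara to Pparg differed.

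The pattern of Pparg over the 7 libraries was compared with that of 11966 other genes with a mean count of at least 50. The nearest were the RNA helicase gene Ddx23 (Pearson r = 0.98), the transporter gene Flvcr1 (r = 0.98) and Ubtd1 (r = 0.977), as a description over libraries that share their groups and scaling. Flvcr1 measured 74.4 to 87.6 CPM in the controls and 86.8, 112.8 and 101.4 CPM in UVB a to c, so it too had its highest value in UVB b. Ddx23 (log2 fold change 0.10, edgeR adjusted p = 0.314), Flvcr1 (0.31, 0.0532) and Ubtd1 (0.31, 0.0979) were not called, though Flvcr1 passed in 7 of 19 alternatives, at adjusted p-values down to 0.0218.

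Coactivators came next. Ppargc1a encodes PGC-1 alpha, known for driving mitochondrial biogenesis in muscle and brown fat. It was scarce, with 25 to 182 counts per library, and measured 4.34, 4.34, 6.28 and 3.68 CPM in controls a to d and 3.98, 2.21 and 0.963 CPM in UVB a to c. UVB b and c were below every control, UVB c the lowest, while UVB a lay within the controls. edgeR gave a log2 fold change of -0.99 with an SE of 0.41 (adjusted p = 0.146), not called. It was -1.56 and called without UVB a (adjusted p = 0.0354), and -0.61 without UVB c (adjusted p = 0.240). Its intervals overlap a pseudogene, Rpl36-ps6, in GRCr8.

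Genes of skeletal muscle, a tissue of the lid in which Ppargc1a is known, varied between the same libraries. The summed TPM of the 8 muscle genes was 2510, 2502, 3527 and 3336 in controls a to d and 3033, 2639 and 1661 in UVB a to c. UVB c was thus lowest, and control c highest, for the muscle genes as for Ppargc1a. All 8 muscle genes had a log2 fold change below 0, with a median of -0.33, and 1 was called (12.5%, near the 13.0% of all genes), the fast fibre gene Actn3 (-1.77, edgeR adjusted p = 0.0361); none of the 8 was at 0. Acta1, the most abundant of them, was not called (-0.05, adjusted p = 0.892; 0.03 without control c and 0.15 without UVB c). Their part in the values of Ppargc1a was not tested.

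**Figure D3:**
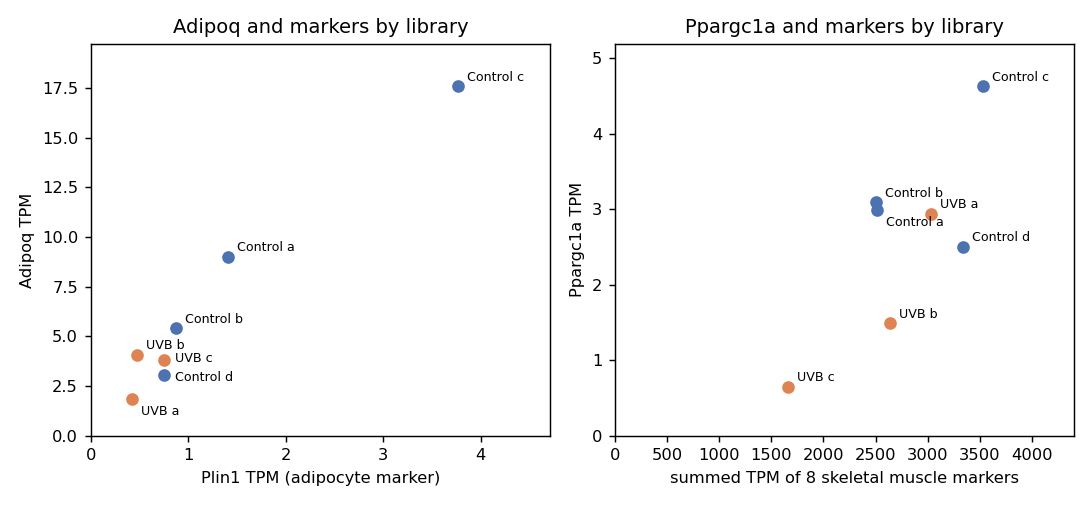
Left, Adipoq TPM against TPM of the adipocyte gene Plin1; right, Ppargc1a TPM against the summed TPM of 8 skeletal muscle genes, each point 1 of 7 libraries. Control c is highest on every axis, and UVB c is lowest on both axes on the right.

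The related coactivator gene Ppargc1b, at 4.18 to 6.44 TPM in the controls and 4.2 to 5.2 TPM after UVB, was not called (log2 fold change -0.16, SE 0.15, edgeR adjusted p = 0.521). In the list of 25 coactivators, corepressors and adipogenic partners, 23 were tested, with 14 below a log2 fold change of 0 and 9 above. Those called were 2, both lower, 8.70% against 13.0% of all genes. Those 2 encode nuclear receptor coactivators of the p160 family. Ncoa1 fell from 138.4 ± 2.06 CPM in the controls (SD, n = 4) to 113.3 ± 7.02 CPM after UVB (SD, n = 3), at a log2 fold change of -0.29 with an SE of 0.059 in edgeR (adjusted p = 0.0155). Ncoa2 fell from 78.0 ± 2.07 to 62.3 ± 3.25 CPM (-0.33, SE 0.060, adjusted p = 0.0106), though its counts were not whole in 3 libraries. Both kept their call in each of 19 alternatives, at adjusted p-values up to 0.0462 and 0.0366. Ncor1, a corepressor gene, measured 214.4 and 208.6 CPM (-0.04, adjusted p = 0.708), and Cebpa, an adipogenic factor that works with PPARG, 374.7 and 378.6 CPM (0.01, adjusted p = 0.947). Ep300 had at most 1.84 counts in a library and was not tested. Since the counting step and annotation are not given, this does not show that the gene was silent in the gland.

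RXR also pairs with receptors for thyroid hormone, vitamin D, retinoic acid and oxysterols. Of 14 such genes, Rxrg included, 12 were tested; 2 were called, both lower, 16.7% against 13.0%, and the list median was -0.16. They were the thyroid hormone receptor genes Thra, from 46.9 to 37.2 CPM (log2 fold change -0.33, SE 0.092, edgeR adjusted p = 0.0421), and Thrb, from 22.96 to 18.8 CPM (-0.29, SE 0.081, adjusted p = 0.0450). Neither call was secure: Thra lost it in 10 and Thrb in 12 of 19 alternatives, at adjusted p-values up to 0.123 and 0.135. Thra also overlaps Nr1d1 and Med24 in GRCr8, with no whole count in any library. The vitamin D receptor gene Vdr (-0.23, adjusted p = 0.131), the oxysterol receptor gene Nr1h3 (-0.19, adjusted p = 0.110) and Rxrg (-0.65, adjusted p = 0.122) were not called.

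The 2 fatty acid binding protein genes stood far apart in level. Fabp5, known as the epidermal form, measured 980 CPM in control a, 787 in b, 954 in c and 841.5 in d, and 1299, 1445 and 1146 CPM in UVB a to c. Each UVB library was above the highest control, and UVB c was the nearest to it. The means of 890.5 ± 91.8 CPM in the controls (SD, n = 4) and 1297 ± 149 CPM after UVB (SD, n = 3) gave a log2 fold change of 0.54 with an SE of 0.11 in edgeR (adjusted p = 0.0129), or 1.46 times. The call held in each of 19 alternatives, with log2 fold changes of 0.46 to 0.62 and adjusted p-values up to 0.0409. Fabp5 has 2 pseudogenes by name in RefSeq, so a share of its reads could belong to copies, although its counts were whole in every library.

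Fabp4, known from fat cells, capillary endothelium and macrophages, was at 9.99, 11.4, 13.4 and 10 CPM in controls a to d and 9.29, 10.4 and 12.02 CPM in UVB a to c. The groups overlapped, with a log2 fold change of -0.08 with an SE of 0.14 in edgeR (adjusted p = 0.735), which became 0.01 without control c. In TPM, Fabp5 was 73.6 to 152 times Fabp4 within a library. The ratio of Fabp4 to Fabp5 was 0.00945 to 0.0136 in the controls and 0.00658 to 0.00961 after UVB, a difference of -0.64 on the log2 scale (exact permutation p = 0.0857, adjusted over 4 ratios 0.171), not called, with UVB c overlapping control a. Other carriers of the family were lower in level: Fabp3 at 6.04 to 12.2 TPM and Fabp12 at 0.92 to 2.91 TPM over all libraries, neither called. Fabp1 and Fabp9 had 0 counts in every library, which allows up to 3 counts in each (counting error only).

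Genes of cell types in which these carriers are known were also called. The summed level of the 8 keratinocyte genes was 11876 to 14309 TPM in the controls and 14003 to 17019 TPM after UVB; 2 of 8 were called (25.0% against 13.0% of all genes), both higher, and none was at 0. The list divided into 4 genes above and 4 below a log2 fold change of 0, with a median of 0.02; Ivl, a gene of differentiated keratinocytes, was 2.50-fold lower after UVB with its groups apart but was not called (-1.32, SE 0.46, edgeR adjusted p = 0.108). Of the called genes, one was the basal keratin gene Krt14 (log2 fold change 0.47, SE 0.099, edgeR adjusted p = 0.0173), whose counts were not whole in any library and whose call was lost without control c or UVB c (adjusted p = 0.0628 and 0.0569); the other was the cornified envelope gene Sprr1b (3.71, adjusted p = 0.000769). The 8 endothelial genes summed to 106.2 to 119.7 TPM after UVB, above every control, with 4 called and all 4 higher (Vwf, Esam, Tie1 and Cdh5; 50%, where 6.30% of all genes were called higher), and none at 0. The 10 macrophage genes summed to 207.4 to 347.7 TPM after UVB, inside the control range, with 4 of 9 tested called higher (Cd163, C1qb, Mrc1 and C1qc; 44.4% against 6.30%), and none at 0. Above and below a log2 fold change of 0 lay 7 and 1 endothelial genes, and 6 and 3 macrophage genes. The most abundant endothelial gene, Emcn, was below 0 and not called (-0.20, SE 0.11, edgeR adjusted p = 0.25). So was the most abundant macrophage gene, Lyz2 (-0.77, SE 0.51, edgeR adjusted p = 0.359). The part of these cells in the values of Fabp5 and Fabp4 was not tested.

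Adipoq encodes adiponectin, a hormone made by fat cells. Its level was low and uneven: 7.19, 3.55, 12.6 and 2.56 CPM in controls a to d and 1.52, 2.63 and 3.04 CPM in UVB a to c, from 32 to 366 counts per library. Control c was the highest by far and control d lay within the UVB range, so the groups overlapped. edgeR gave a log2 fold change of -1.43 with an SE of 0.57 (adjusted p = 0.140), not called, and -0.87 without control c (adjusted p = 0.246). DESeq2 called it with the same value (adjusted p = 0.0221). The number of counts per TPM, taken relative to Pparg, varied 1.32 times between libraries for Adipoq, against at most 1.08 times for the other 8 genes.

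Genes of fat cells also varied from library to library, and not all alike. Plin1, the lipid droplet coat of fat cells, measured 1.41, 0.87, 3.77 and 0.75 TPM in controls a to d and 0.42, 0.47 and 0.75 TPM in UVB a to c. The lipid droplet gene Cidec measured 2.15, 1.95, 4.95 and 1.04 TPM in the controls and 0.43, 0.77 and 0.60 TPM after UVB, and the leptin gene Lep had 50 counts in control c and at most 7 in any other library. Control c was highest for these 3, as for Adipoq, and also for Cfd (84.95 TPM), Aqp7 (14 counts) and Adrb3 (6 counts). The rest of the list had their highest TPM elsewhere. Retn was highest in UVB c (91 counts, log2 fold change 1.6) and Gpd1 in UVB b (0.24), neither called. Plin4 was highest in control d and Slc2a4 in UVB a. Of the whole list of 10 adipocyte genes, 7 were tested, 3 lay above 0 and 4 below, and 2 were called (28.6% against 13.0% of all genes), both lower: Cidec (log2 fold change -2.08, SE 0.54, edgeR adjusted p = 0.0370) and Plin4 (-0.44, SE 0.088, adjusted p = 0.0133). The call of Cidec rests on 8 to 132 counts per library, most of them in control c, and its stability over alternatives is not given here. The summed level of the list was 231.9 to 299.5 TPM in the controls and 250.2 to 332.8 TPM after UVB, led by Gpd1 at 148.4 TPM in the controls, and none of the 10 was at 0 in every library. Their part in the values of Adipoq was not tested.

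The RefSeq window of Adipoq, on the minus strand of chromosome 11 in GRCr8, is shown because Adipoq is a textbook target of PPARG; capitals again mark the first of its best DR1 matches, with 4 mismatches.

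Adipoq, chr11:91240120-91240419: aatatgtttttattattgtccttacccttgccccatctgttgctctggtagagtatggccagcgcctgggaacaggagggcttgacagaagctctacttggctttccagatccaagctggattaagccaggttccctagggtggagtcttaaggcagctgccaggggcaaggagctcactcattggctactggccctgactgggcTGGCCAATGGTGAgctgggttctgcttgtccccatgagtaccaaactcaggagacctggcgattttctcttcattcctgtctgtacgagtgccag

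In a list of 10 genes whose products help secrete, bind or relay adiponectin, 9 were tested and 1 was called, 11.1% against 13.0%. That was Ero1a, an oxidoreductase of the endoplasmic reticulum known for aiding adiponectin secretion, which fell from 147.2 ± 13.8 CPM in the controls (SD, n = 4) to 92.8 ± 11.7 CPM after UVB (SD, n = 3), at a log2 fold change of -0.67 with an SE of 0.10 in edgeR (adjusted p = 0.00608). The receptor genes Adipor1 (-0.10, SE 0.063, adjusted p = 0.311) and Adipor2 (0.19, SE 0.23, adjusted p = 0.628) were not called.

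Further known targets of PPARG moved in opposite directions. Of 27 listed, 23 were tested and 7 were called, 30.4% against 13.0% of all genes: 1 higher and 6 lower, where 6.30% and 6.74% of all genes were called in those directions. The list median was 0.01 (0.0150), beside -0.01 for all genes. The list shares 8 genes with the adipocyte genes above.

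The gene that rose was Lpl, which encodes the lipase that frees fatty acids from circulating triglyceride. It measured 29.3, 30.06, 38.7 and 30.09 CPM in controls a to d and 77.5, 79.7 and 84.1 CPM in UVB a to c. Every UVB library was far above control c, the highest control. edgeR gave a log2 fold change of 1.33 with an SE of 0.099 (adjusted p = 0.00063), or 2.51 times. Lpl is made in fat, muscle and macrophages among other cells, for which the summed levels are given above, and their part in its rise was not tested.

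Among those that fell were Cidea, Plin2, Plin4 and Cidec, whose products sit on lipid droplets; the droplet coat gene Plin5, in the same list, was not called, at 3.95 CPM in the controls and 5.83 CPM after UVB with the groups apart (log2 fold change 0.56, SE 0.18, edgeR adjusted p = 0.0748). Cidea, a droplet fusion protein gene, measured 1296, 1104, 1166 and 1146 CPM in controls a to d and 774, 898 and 832.5 CPM in UVB a to c, with no overlap (log2 fold change -0.50, SE 0.085, edgeR adjusted p = 0.00823). Plin2, the droplet coat of many cell types, measured 1697, 1565, 1763 and 1674 CPM in the controls and 1296, 1174 and 1211 CPM after UVB (-0.45, SE 0.077, adjusted p = 0.00826). These are abundant transcripts, at 2405 TPM for Cidea and 1549 TPM for Plin2 in the controls, unlike Cidec and Plin1. Plin4, which overlaps Hdgfl2 in GRCr8, fell from 111.0 to 81.6 CPM. The calls of Lpl, Cidea, Plin2 and Plin4 held in each of 19 alternatives, at adjusted p-values up to 0.0448. Also lower were Cidec, given above, and the fatty acid transporter gene Slc27a1 (-0.28, SE 0.063, adjusted p = 0.0214), whose counts were not whole in 4 libraries and whose call was lost without control c or d or UVB a or c (adjusted p up to 0.0629).

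Among 25 known targets of PPARA and PPARD, which act mainly in fatty acid oxidation, 24 were tested and 2 called, 8.33% against 13.0%, with a list median of 0.04. Pdk4, which encodes a kinase that turns off pyruvate oxidation, fell from 526.5 ± 43.8 CPM in the controls (SD, n = 4) to 394.8 ± 56.0 CPM after UVB (SD, n = 3), at a log2 fold change of -0.42 with an SE of 0.10 in edgeR (adjusted p = 0.0307). Pex11a, a peroxisome division gene, rose from 113.2 ± 12.2 to 142.0 ± 9.93 CPM (0.33, SE 0.091, adjusted p = 0.0433). Neither call was secure, since Pdk4 lost it without control c, control d, UVB a or UVB c (adjusted p up to 0.0976), and Pex11a in 9 of 19 alternatives (up to 0.129). Cpt1a, the entry enzyme of mitochondrial fatty acid oxidation, measured 192.5 and 247.4 CPM and was not called (0.36, SE 0.11, adjusted p = 0.0655). The mitochondrial fatty acid oxidation gene Hadha was not called (-0.04, adjusted p = 0.780).

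**Figure D4:**
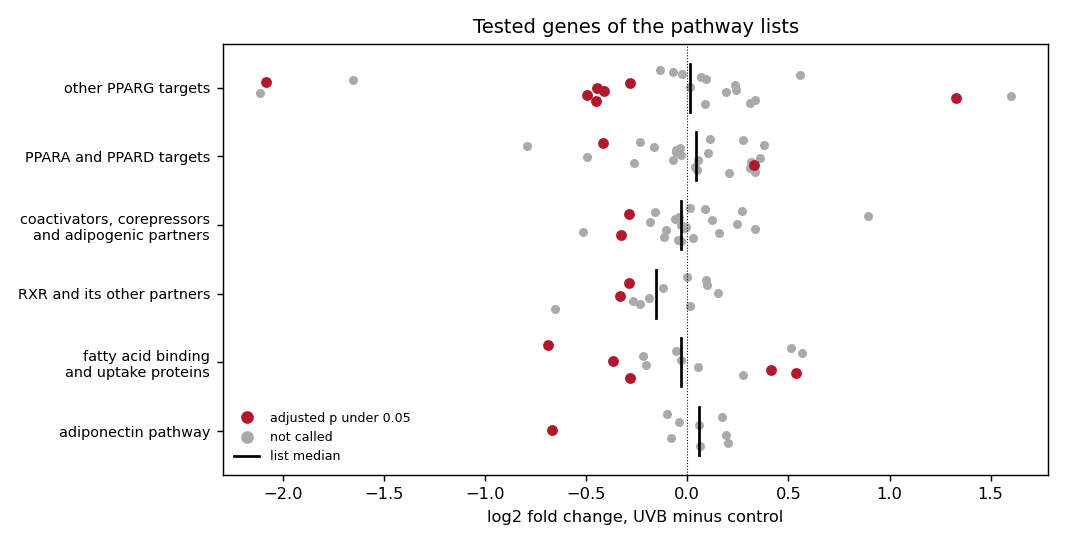
Log2 fold change, UVB minus control (horizontal axis), of each tested gene in 6 lists of receptor partners and targets; red points passed an adjusted p of 0.05 and black lines are list medians. The medians lie near 0, and the called PPARG targets lie below 0 apart from Lpl.

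Proteins that carry fatty acids into and within cells also divided. Of 20 listed, 13 were tested and 5 called, 2 higher and 3 lower, 38.5% against 13.0%, with a median of -0.03. Slc27a4, the main fatty acid transporter gene of epidermis, measured 220.8, 206.3, 202.1 and 204.8 CPM in controls a to d and 273.9, 317.9 and 317.3 CPM in UVB a to c, with every UVB library above the controls (log2 fold change 0.54, SE 0.071, edgeR adjusted p = 0.00348). Scarb1, the lipoprotein receptor related to Cd36, rose from 356.7 to 475.3 CPM (0.41, SE 0.097, adjusted p = 0.0248), a call lost without control b or c or UVB a or b (up to 0.0723). Got2, a mitochondrial aminotransferase gene also known as a membrane fatty acid binding protein, fell from 480.0 to 372.1 CPM (-0.37, SE 0.063, adjusted p = 0.00833), with counts not whole in 5 libraries and 7 pseudogenes by name. Slc27a1, described above, and the retinoic acid carrier gene Crabp1 (-0.69, SE 0.19, edgeR adjusted p = 0.0496) were the others that fell. The groups of Crabp1 overlapped in CPM, its counts were not whole in 6 libraries, and its adjusted p lay just under the threshold.

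**Figure D5:**
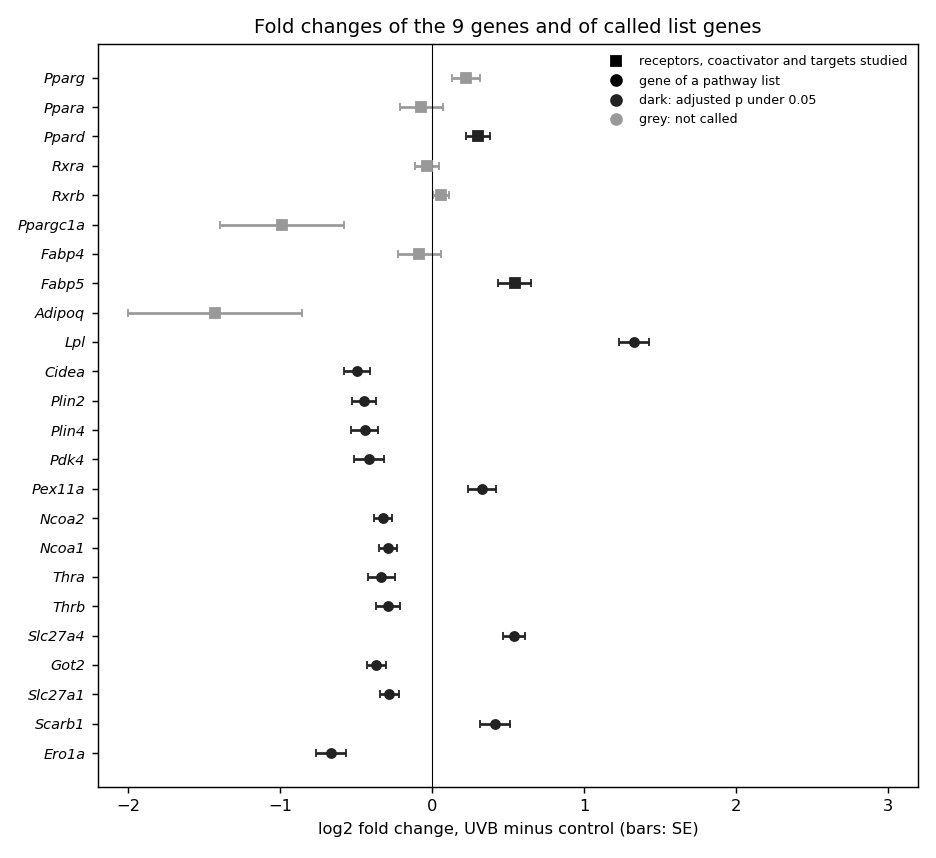
Log2 fold change, UVB minus control (horizontal axis), with SE bars, of the 9 genes (squares) and of named called genes of the pathway lists (circles); dark symbols passed an adjusted p of 0.05. Fabp5 and Ppard are the dark squares, and Adipoq and Ppargc1a have the widest errors.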

How the data were processed

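Gene-level values came as 2 tables that the authors deposited, expected counts (estimated counts, of which 12.5% were not whole) and TPM. FastQC, Trimmomatic, DRAGEN, Picard and the build rn7 are named in the submitters' processing notes; the counting step, annotation and strand setting are not given in the sources used here. Unquoted commas in gene names move cells, so 7 values were read from the right end of each row; 5 rows in each table had fewer and were dropped. The columns name a library's group but not its replicate number.

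Counts were rounded and fitted over all genes in edgeR 4.0.16 (R 4.3.3): filterByExpr by group, TMM, robust quasi-likelihood test, Benjamini-Hochberg adjustment, 13709 genes tested. SE was computed as the size of the log2 fold change divided by the root of F. The fit was tested on simulated data with known changes. Alternatives were DESeq2 1.42.0, limma 3.58.1 (voom, with and without quality weights, or log2 TPM with pseudocounts 1 and 0.1), other scalings and filters, and leaving out each library. The design had named raw counts or rounded expected counts.

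The genes and lists were chosen with earlier results of these data known. Named genes were the 9 measured; up to 4 called genes per pathway list with the smallest p and a mean count of at least 50; the most abundant gene of each cell type list; and the 3 nearest to Pparg. Other genes named in the text were chosen after their values were seen. Of 6 pathway lists, genes not in the tables were left out. Some results are not reported here. Sequences are from RefSeq (GRCr8), which is not the build of the counts and served otherwise for names and overlaps only.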

Additional observations from a re-analysis of the deposited data

Results flagged for a closer look

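In the 4 controls, 43 values were examined for a library far from the other 3, and 6 had one, where chance gives about 1 in 20, or 2.1; groups of 3 were not examined. Control c stood apart in 3 of the 6. For Rxrb it held 79.86 CPM while the others lay at 75.85 to 76.41 CPM, a gap of 0.861 of the range. For Lpl it held 38.74 CPM while the others lay at 29.27 to 30.09 CPM (gap 0.914), and its log2 fold change without control c stayed within 1.29 to 1.43, the range over fits that leave out 1 library. The log2 ratio of Ppara to Pparg was -2.278 in control c against -2.544 to -2.504, a gap of 0.849.

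Pex11a measured 94.91 CPM in control d against 117.7 to 120.7 CPM, a gap of 0.885, and without control d its log2 fold change was 0.26 and not called (edgeR adjusted p = 0.0638). Ncoa2 measured 74.96 CPM in control a against 78.83 to 79.49 CPM, a gap of 0.856. The 8 endothelial genes summed to 76.17 TPM in control a against 92.22 to 93.0 TPM, a gap of 0.954.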

How the results depend on the processing

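No paired analysis was possible because replicate numbers in the labels could not be tied to columns. At an adjusted p of 0.01, stricter by construction, edgeR called 383 genes (1787 at 0.05), 0 of the 9 receptors and targets (5 had an unadjusted p under 0.05, and 1 was called at 0.05 under log2(TPM + 1) without a filter), 3 PPARG targets, 2 fatty acid carriers, and 0 in the lists of PPARA and PPARD targets, coactivators and RXR partners, where 9, 6 and 5 had an unadjusted p under 0.05. DESeq2 called 2451 genes in all, with 4 PPARA and PPARD targets and 4 coactivator genes among them. RXR partners gave 1 call with upper quartile factors or no filter, and 0 with library size alone or in the 3 TPM fits, where the adiponectin list gave 2; the cause was not tested. Leaving out 1 library gave 851 to 1898 genes in all, 1 to 2 of the 9 receptors and targets, 4 to 7 PPARG targets, 0 to 3 PPARA and PPARD targets, 2 to 4 coactivators, 0 to 1 RXR partners, 2 to 5 carriers and 1 in the adiponectin list.

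Of 627 refits of 33 named genes, 557 kept direction and side of the threshold, 52 lost a call, 9 gained one and 9 changed sign, none of the last called: Ppara (0.0295 without UVB a, over a range with 1 library left out of -0.241 to 0.0295), Rxra (0.0124 without control a and 0.023 without UVB a, range -0.0993 to 0.023), Fabp4 (0.0147 without control c, range -0.187 to 0.0147), Scd (0.031, 0.0183 and 0.0142 without control a, UVB a and UVB c, range -0.153 to 0.031) and Acta1 (0.0318 and 0.148 without control c and UVB c, range -0.157 to 0.148). The 4 ratios kept their sign in all 9 alternatives, which says little, since none could pass after adjustment with a library left out. Counts of Ep300, Fabp1 and Fabp9 were too low to test.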
